A study of Rattus norvegicus with 16 samples.

Results

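The genes described here are 9 regulators and markers of vessel sprouting, Dll4, Jag1, Hey1, Apln, Aplnr, Cxcr4, Unc5b, Esm1 and Tm4sf1, followed through the retina of newborn rats. They were chosen by name, as genes of endothelial tip cells and of Notch signalling between sprouting cells. Each was represented by 1 probe set with that symbol alone, so all 9 were measured, among 14324 genes on the array. The series asked how the retina of a susceptible strain, Sprague Dawley (SD), and of a resistant strain, Fischer (F344), responds early in oxygen-induced retinopathy, a rat model of retinopathy of prematurity. There were 8 groups of 2 arrays: SD and F344 pups under cyclic hyperoxia and SD and F344 pups in room air, each on post-natal day 6 and on day 5. Cyclic hyperoxia alternated 24 h at 80% oxygen with 24 h at 21% from within 12 h of birth, and room air pups were age-matched controls. The oxygen level just before each of the days is not stated in the labels used here. With phases of 24 h, day 6 and day 5 may follow different phases of the cycle. Where an oxygen effect differs between the days, age and oxygen phase cannot be told apart. Each array carried pooled RNA of several pups. A make-up of 3 rats and 2 litters is given for the pools, and it is unclear whether each pool or a group's pools together are meant. Whole retina was assayed, so fewer cells of a type and less RNA per cell cannot be told apart.

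In a growing retinal vessel, the endothelial cell at the front extends filopodia towards the growth factor VEGF and is called the tip cell, while the cells behind it form the stalk. VEGF raises the Notch ligand Dll4 in the tip cell, and Dll4 activates Notch in the neighbouring cells, which turns on target genes such as Hey1 and keeps those cells from becoming tips. Jag1 is a ligand that opposes Dll4 in this setting, as shown in mouse retina. Tip cells of mouse retina are also known for the apelin peptide (Apln), the secreted proteoglycan endocan (Esm1), the chemokine receptor Cxcr4 and the netrin receptor Unc5b. The apelin receptor Aplnr is carried by endothelium, and Tm4sf1 is a tetraspanin-like membrane protein of endothelium and its filopodia. Dll4 and Cxcr4 are not confined to vessels, since neural progenitor cells of the mouse retina or brain make them too.

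Promoter sequence is shown for Cxcr4 and Tm4sf1, the genes called under cyclic hyperoxia within a strain. The 250 bases before the transcription start were read from the RefSeq promoter table of assembly GRCr8, 5′ to 3′ on the gene's strand. They lie at chr13:42634289-42634538, minus strand, for Cxcr4 and at chr2:143616177-143616426, minus strand, for Tm4sf1. Capitals mark ACGTG or GCGTG, the core letters of a hypoxia response element, read on either strand.
Cxcr4: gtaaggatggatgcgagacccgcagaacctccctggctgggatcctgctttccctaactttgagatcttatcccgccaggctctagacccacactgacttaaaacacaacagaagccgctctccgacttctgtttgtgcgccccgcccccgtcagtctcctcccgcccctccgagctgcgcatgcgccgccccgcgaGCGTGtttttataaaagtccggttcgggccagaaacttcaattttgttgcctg
Tm4sf1: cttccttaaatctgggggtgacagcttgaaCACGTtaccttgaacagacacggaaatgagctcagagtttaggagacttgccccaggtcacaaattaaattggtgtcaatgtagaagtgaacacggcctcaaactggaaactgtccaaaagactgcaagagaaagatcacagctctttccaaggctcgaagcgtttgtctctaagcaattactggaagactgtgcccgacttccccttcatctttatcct
The Cxcr4 window held GCGTG near the start, between 48 and 53 bases before it, and the Tm4sf1 window held ACGTG on the opposite strand between 215 and 220 bases before it. Such short words are common. Of the 33469 rat promoter windows in the table, 36.7% held ACGTG or GCGTG on either strand in the 250 bases before the start. So did 4 of the 6 sprouting genes in the table (Esm1, Cxcr4, Jag1 and Tm4sf1, and not Apln or Unc5b). TGGGAA, the core bound by the Notch partner RBPJ, was in the same 250 bases in 22.1% of all windows and in 0 of the 6. These are matches of letters and say nothing of binding. Dll4, Aplnr and Hey1 are not shown.

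All values below are deposited log2 intensities after RMA normalization, and a log2 difference of 1 is a doubling of the measured signal. The table has no detection calls. Apln, Aplnr, Esm1, Unc5b and Hey1 stayed under 5.452, the lowest array median, in all 8 group means, and Tm4sf1 did in 6 of 8, so that whether they stood above background is unknown and a change of theirs is given in log2 units only. Dll4, Cxcr4 and Jag1 lay above it in every group. The tissue label was checked against neuronal markers, and 7 of the 8 retinal neuron markers measured lay above that median (Pax6 averaged 11.03 and Crx 10.77, log2), while all 6 lens and all 7 skeletal muscle markers measured lay under it. Of 7 pigment epithelium and choroid markers measured, 5 lay under it, while Ttr (8.98) and Tyrp1 (6.53) lay above it. The part of pigment epithelium or choroid in the values of the sprouting genes was not tested. Arrays of a group correlated at between 0.987 and 0.996 across the 14324 genes. Among F344 hyperoxia arrays of day 6, replicate 2 stood apart from all others, with the highest array median (5.524), the narrowest interquartile range (2.81) and the lowest correlation with its partner.

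**Figure D1:**
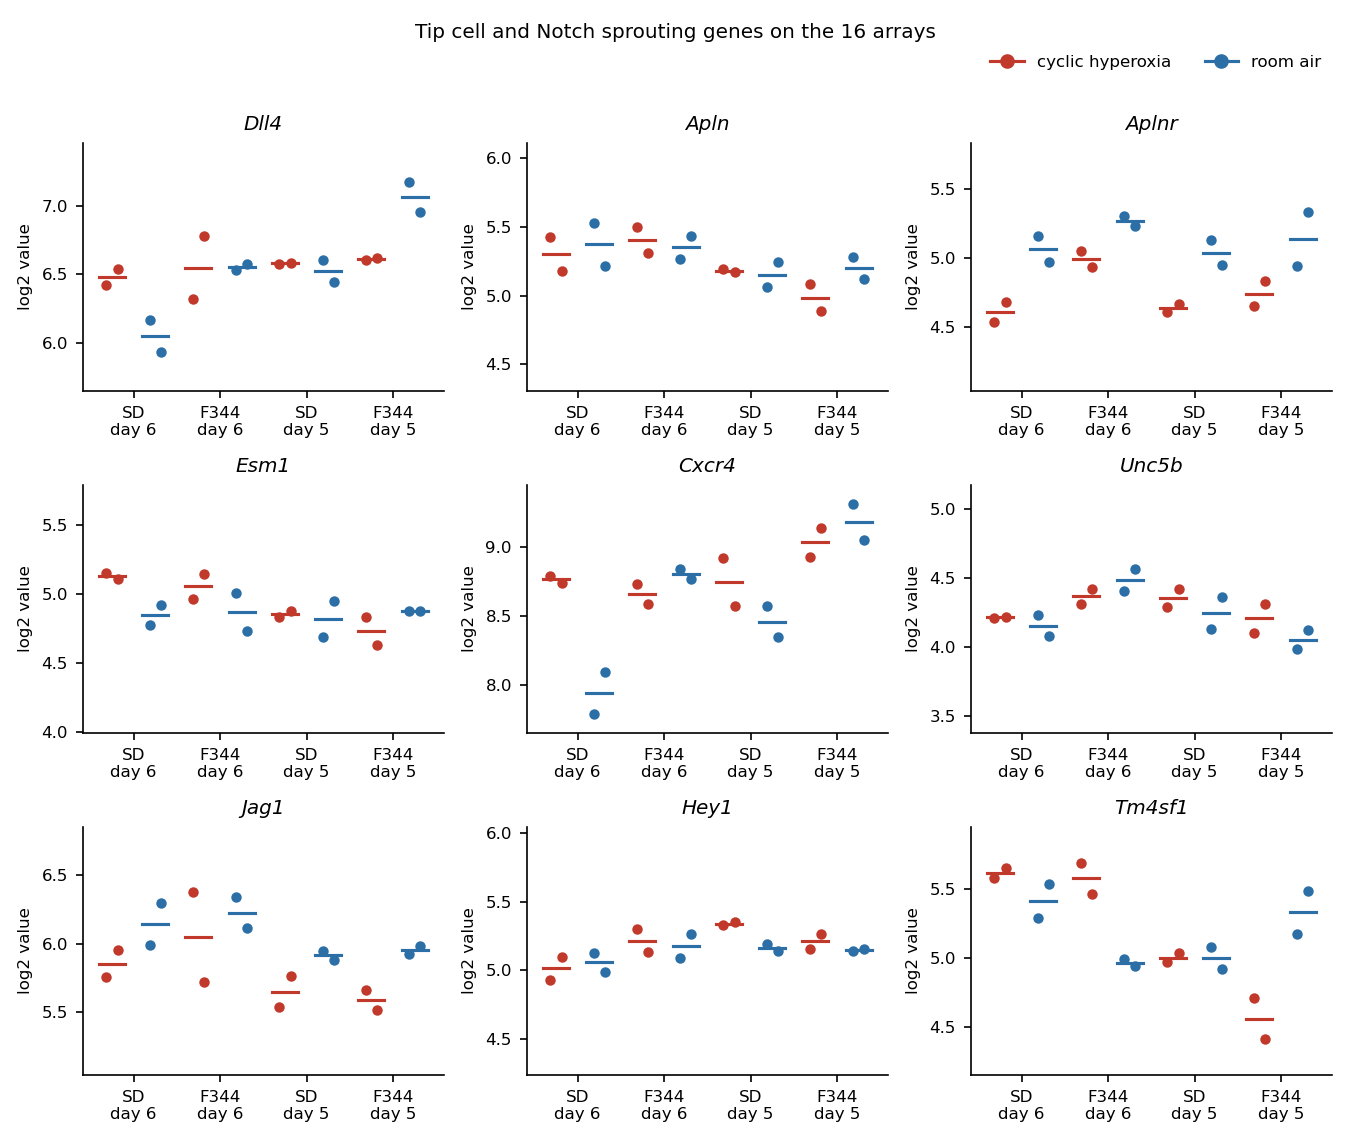
Log2 value (vertical axis, a span of the same size in each panel) of the 9 sprouting genes on each of the 16 arrays, by strain and day, with cyclic hyperoxia in red and room air in blue; points are arrays and bars are group means. Cxcr4 in SD retinas of day 6 lay at 8.79 and 8.74 under cyclic hyperoxia, against 7.79 and 8.09 in room air, and Aplnr was lower under cyclic hyperoxia with no overlap at each strain and day.

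Oxygen exposure moved 3 of the 9 genes past the test (limma over all 14324 genes, Benjamini-Hochberg adjusted p under 0.05). On day 6, Cxcr4 rose in SD retinas, Tm4sf1 rose in F344 retinas, and over both strains together Tm4sf1 rose and Aplnr fell. On day 5, Tm4sf1 fell in F344 retinas, and none of the 9 was called in SD retinas or over both strains. On day 6 the share of all genes called was 2.79% in SD and 1.19% in F344 retinas, with 1 of the 9 called in each, and 6.74% over both strains, with 2 of the 9 called. On day 5 it was 0.0628% in SD, 0.126% in F344 and 0.209% over both strains, with 0, 1 and 0 of the 9 called. The median log2 change of the 9 genes was 0.06 in SD and -0.00 in F344 retinas on day 6, and 0.04 in SD and -0.21 in F344 retinas on day 5, beside medians over all genes within 0.01 of 0. The 4 comparisons share 1 estimate of spread, and the 2 values over both strains are means of the within-strain effects.

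**Figure D2:**
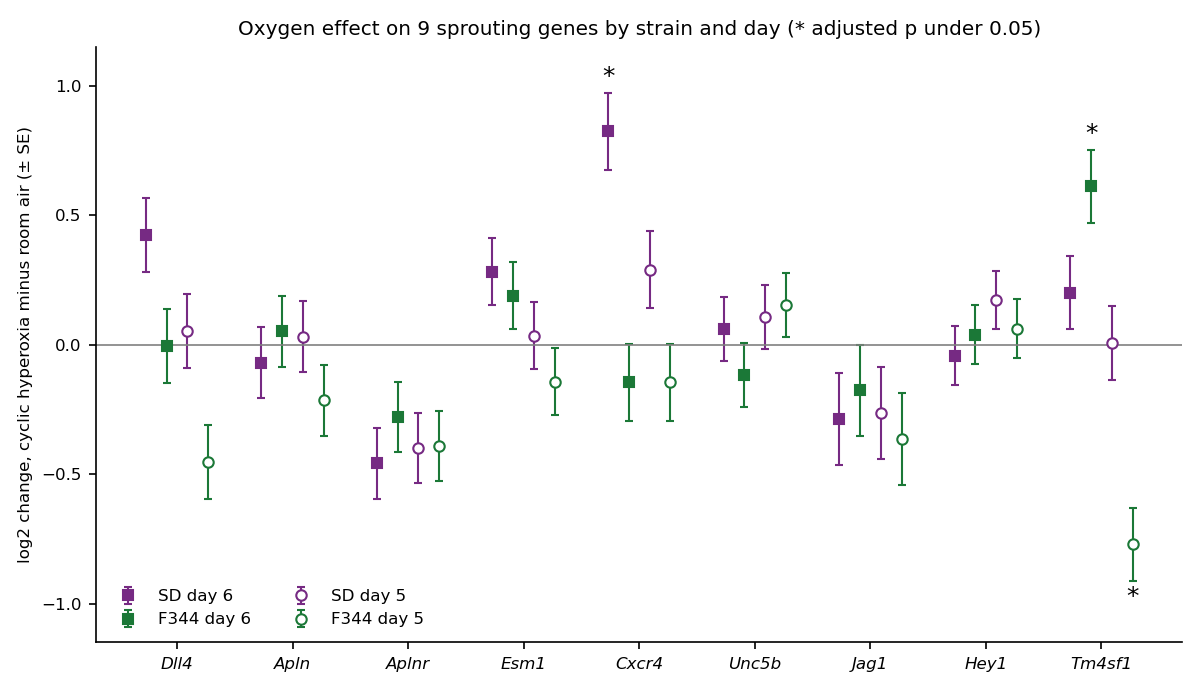
Log2 change under cyclic hyperoxia minus room air (vertical axis) of the 9 sprouting genes, with squares for day 6, circles for day 5, purple for SD and green for F344; bars are moderated standard errors with 2 arrays per group, and asterisks mark adjusted p under 0.05. The asterisks stand at Cxcr4 in SD on day 6 (0.82) and at Tm4sf1 in F344 on day 6 (0.61) and day 5 (-0.77).

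Of the Notch ligands, Dll4 had no called oxygen effect. SD retinas of day 6 had Dll4 values of 6.42 and 6.54 under cyclic hyperoxia, against 6.17 and 5.94 in room air. F344 retinas of day 6 had 6.32 and 6.78 under cyclic hyperoxia, against 6.53 and 6.58 in room air. Day 5 values in SD retinas were 6.57 and 6.58 under cyclic hyperoxia, against 6.60 and 6.45 in room air. The groups overlapped in the F344 setting of day 6 and in the SD setting of day 5 and did not in SD retinas of day 6. Day 5 values in F344 retinas were 6.60 and 6.62 under cyclic hyperoxia, against 7.17 and 6.95 in room air, again with no overlap and with the hyperoxia arrays lower. The log2 changes were 0.42 ± 0.14 (SE, n = 2 per group, adjusted p = 0.114, limma) in SD on day 6 and -0.45 ± 0.14 (adjusted p = 0.369) in F344 on day 5. The SD change of day 6 passed the test only without either F344 hyperoxia array of day 6 (adjusted p = 0.0385). The room air groups gave Dll4 its widest spread: SD retinas of day 6 were lowest at a mean of 6.05 and F344 retinas of day 5 highest at 7.06.

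Jag1, the ligand that opposes Dll4, was lower in mean under cyclic hyperoxia in every strain and day, and no difference passed the test. In SD retinas of day 6 it measured 5.75 and 5.95 under cyclic hyperoxia, against 5.99 and 6.29 in room air. In F344 retinas of day 6 it measured 6.38 and 5.72 under cyclic hyperoxia, against 6.34 and 6.11 in room air. The wide gap between these F344 hyperoxia arrays, the second of which is the array that stood apart, made this the only setting where the Jag1 groups overlapped. The SD values of day 5 were 5.54 and 5.77 under cyclic hyperoxia, against 5.95 and 5.88 in room air. The F344 values of day 5 were 5.66 and 5.52 under cyclic hyperoxia, against 5.92 and 5.98 in room air. Over both strains the log2 change was -0.23 on day 6 (adjusted p = 0.278) and -0.31 on day 5 (adjusted p = 0.375). With replicate 1 of F344 hyperoxia day 6 left out, the day 6 change over both strains became -0.40. Without replicate 2, the array that stood apart, it became -0.07. The F344 change of day 6 was -0.50 without replicate 1 and 0.15 without replicate 2. The lower F344 mean of day 6 thus rested on replicate 2.

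Hey1, a transcriptional repressor switched on by Notch, was the steadiest of the 9, with all 16 arrays between 4.93 and 5.35 and group means within 0.32 of each other. Its largest log2 change under cyclic hyperoxia was 0.17 in SD retinas of day 5 (adjusted p = 0.672), where it measured 5.33 and 5.35 under cyclic hyperoxia and 5.19 and 5.14 in room air. In the other strain and day settings its groups overlapped, with log2 changes between -0.04 and 0.06.

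The receptor and the peptide of the apelin pair were not tested against each other. Aplnr, the receptor, was lower on both hyperoxia arrays than on both room air arrays in each of the 4 settings. Values in SD retinas of day 6 were 4.54 and 4.68 under cyclic hyperoxia, against 5.16 and 4.97 in room air. Values in F344 retinas of day 6 were 5.05 and 4.93 under cyclic hyperoxia, against 5.31 and 5.24 in room air. This receptor, which is known from endothelium of growing veins and capillaries, was lower by a like amount on the earlier day. On day 5 SD retinas had 4.61 and 4.67 under cyclic hyperoxia, against 5.13 and 4.95 in room air. On day 5 F344 retinas had 4.66 and 4.83 under cyclic hyperoxia, against 4.94 and 5.33 in room air. Arrays failed to overlap in this direction for 24.7% of all genes in SD and 22% in F344 on day 6, and for 21.5% in SD and 20.3% in F344 on day 5. The log2 change over both strains was -0.37 ± 0.10 on day 6 (adjusted p = 0.0342) and -0.40 ± 0.10 on day 5 (adjusted p = 0.151). Within a strain none passed, with adjusted p of 0.0789 in SD and 0.303 in F344 on day 6 and of 0.442 in SD and 0.429 in F344 on day 5. The day 6 call held in 8 of the 16 fits that left out 1 array. It was lost without either array of F344 room air day 6 (adjusted p = 0.11 and 0.0894), SD hyperoxia day 6 (0.166 and 0.0527) or SD hyperoxia day 5 (0.0512 each), without replicate 2 of F344 hyperoxia day 6 (0.0909) and without replicate 1 of SD room air day 6 (0.108).

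Apln, the peptide that binds Aplnr, had no called oxygen effect. It lay between 4.89 and 5.53 on the 16 arrays, and its log2 change was -0.07 in SD and 0.05 in F344 retinas on day 6 and 0.03 in SD and -0.21 in F344 retinas on day 5. The groups overlapped in all settings but F344 on day 5, where Apln measured 5.08 and 4.89 under cyclic hyperoxia and 5.28 and 5.12 in room air (adjusted p = 0.727). No neighbouring group means in its order separated beyond their arrays.

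Cxcr4, the receptor for the chemokine Cxcl12 that guides endothelial, neural and blood cells, gave the largest oxygen effect of the 9 genes. In SD retinas of day 6 it measured 8.79 and 8.74 under cyclic hyperoxia, against 7.79 and 8.09 in room air, with no overlap. The log2 change was 0.82 ± 0.15, a 1.77-fold higher signal (n = 2 per group, adjusted p = 0.0141). In F344 retinas of day 6 it measured 8.73 and 8.59 under cyclic hyperoxia, against 8.84 and 8.77 in room air, so the hyperoxia arrays were the lower ones there (log2 change -0.15). The SD minus F344 difference of the 2 oxygen effects was 0.97 ± 0.21, with an adjusted p of 0.0941, so a strain difference was not called. None of the 9 was called in that comparison, which called 0.0559% of all genes on day 6. On day 5 Cxcr4 measured 8.92 and 8.58 in SD retinas under cyclic hyperoxia, against 8.57 and 8.35 in room air (log2 change 0.29, adjusted p = 0.587). In F344 retinas of day 5 it measured 8.93 and 9.14 under cyclic hyperoxia, against 9.31 and 9.05 in room air, and these groups overlapped.

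In SD retinas the hyperoxia mean of Cxcr4 was 8.77 on day 6 and 8.75 on day 5, and the room air mean was 7.94 on day 6 and 8.46 on day 5. The SD room air group of day 6 had the lowest Cxcr4 mean of the 8 groups and did not overlap the next one, SD room air of day 5. The SD hyperoxia mean of day 6 lay within the range of the remaining groups. Over both strains the Cxcr4 change of day 6 was 0.34 (adjusted p = 0.0637), not called. It passed when arrays were quantile normalized again (0.37, adjusted p = 0.0406), when they were centred and scaled (0.39, adjusted p = 0.0352) and without replicate 2 of SD room air day 6 (0.41, adjusted p = 0.0452). The call was lost without either SD hyperoxia array of day 6 (0.80 with adjusted p = 0.206, and 0.85 with adjusted p = 0.0721) and without replicate 1 of SD room air day 6 (0.67, adjusted p = 0.123). It held in the other 13 fits without 1 array. Without replicate 1 of F344 hyperoxia day 6 the strain difference became 1.04 with an adjusted p of 0.0446.

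Tm4sf1 changed in opposite directions on the 2 days in F344 retinas. On day 6 it measured 5.69 and 5.47 under cyclic hyperoxia, against 4.99 and 4.94 in room air. On day 5 it measured 4.71 and 4.41 under cyclic hyperoxia, against 5.17 and 5.49 in room air. No arrays overlapped on either day, and the log2 changes were 0.61 ± 0.14 on day 6 (adjusted p = 0.0491) and -0.77 ± 0.14 on day 5 (adjusted p = 0.0482). In SD retinas it measured 5.58 and 5.65 under cyclic hyperoxia on day 6, against 5.29 and 5.54 in room air (log2 change 0.20), with no overlap. On day 5 the SD values were 4.97 and 5.04 under cyclic hyperoxia, against 5.08 and 4.92 in room air, and these overlapped. Over both strains the log2 change was 0.41 ± 0.10 on day 6 (adjusted p = 0.0264) and -0.38 on day 5 (adjusted p = 0.165).

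The test of the day difference itself called Tm4sf1. The oxygen effect of day 6 minus that of day 5 was 1.38 ± 0.20 in F344 retinas (adjusted p = 0.00858), where 1.02% of all genes were called, and 0.79 ± 0.14 over both strains (adjusted p = 0.0293), where 0.182% were. Of the 9 genes only Tm4sf1 was called in these comparisons, and none was in SD retinas alone, where 0.112% of all genes were called. The SD minus F344 differences of the Tm4sf1 oxygen effect were -0.41 on day 6 (adjusted p = 0.455) and 0.78 on day 5 (adjusted p = 0.788), neither called, and on day 5 none of the 9 was called, with 0% of all genes (879 genes had an unadjusted p under 0.05). In F344 retinas both the exposed and the room air groups moved between the days: the room air mean was 4.97 on day 6 and 5.33 on day 5, and the hyperoxia mean was 5.58 on day 6 and 4.56 on day 5.

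The single-day calls of Tm4sf1 lay near the threshold. The F344 call of day 6 held in 6 of the 16 fits without 1 array and was lost without either array of F344 hyperoxia day 6 (adjusted p = 0.0618 and 0.109), F344 room air day 6 (0.251 and 0.26), SD hyperoxia day 6 (0.071 each), SD hyperoxia day 5 (0.0766 each) or SD room air day 5 (0.0532 each). The F344 call of day 5 held in 4 of 16 and was lost without either array of F344 hyperoxia day 5 (0.113 and 0.851), F344 room air day 5 (0.0559 and 0.152), SD hyperoxia day 5 (0.0942 each), SD room air day 5 (0.0703 each), F344 room air day 6 (0.0935 each) or SD hyperoxia day 6 (0.0926 each). The F344 day difference held in 14 of 16 fits and was lost without either F344 room air array of day 6 (0.0625 and 0.0665). The day 6 call over both strains held in 11 of 16 and was lost without either array of F344 room air day 6 (0.0747 and 0.0946) or SD hyperoxia day 6 (0.106 and 0.0697) and without replicate 1 of SD room air day 6 (0.0909). The day difference over both strains held in 6 of 16 and was lost, with adjusted p between 0.0668 and 0.124, without replicate 2 of F344 hyperoxia day 5 or F344 room air day 5, replicate 1 of SD room air on either day, or either array of SD hyperoxia day 5, F344 room air day 6 or SD hyperoxia day 6. The direction of each of these differences was the same in all 16 fits.

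Esm1 and Unc5b, the secreted endocan and the receptor for the guidance cue netrin, had no called oxygen effect. Esm1 measured 5.15 and 5.11 in SD retinas of day 6 under cyclic hyperoxia, against 4.78 and 4.92 in room air (log2 change 0.28, adjusted p = 0.253), with no overlap. In F344 retinas of day 6 it measured 4.97 and 5.15 under cyclic hyperoxia, against 5.00 and 4.73 in room air, and over both strains the day 6 change was 0.24 (adjusted p = 0.127). On day 5 its log2 changes were 0.04 in SD and -0.14 in F344 retinas. Unc5b lay between 3.99 and 4.56 on the 16 arrays, its groups overlapped in every setting, and its log2 changes lay between -0.12 and 0.15.

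Counted over the 9 genes, arrays failed to overlap in the lower direction under cyclic hyperoxia for 6 genes in F344 retinas of day 5, namely Dll4, Apln, Aplnr, Esm1, Jag1 and Tm4sf1, and in the higher direction for 0, beside 20.3% and 20.5% of all genes. In SD retinas of day 6 they did so for 4 genes in the higher direction (Dll4, Esm1, Cxcr4 and Tm4sf1) and for 2 in the lower (Aplnr and Jag1), beside 25.3% and 24.7% of all genes. F344 retinas of day 6 had 1 higher (Tm4sf1) and 2 lower (Aplnr and Cxcr4), beside 20.7% and 22%. SD retinas of day 5 had 2 higher (Cxcr4 and Hey1) and 2 lower (Aplnr and Jag1), beside 24.6% and 21.5%. Across all genes such separation, either way, was found for 50% in SD and 42.7% in F344 on day 6 and for 46.2% in SD and 40.8% in F344 on day 5, so with 2 arrays per group it is common.

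In room air alone, Cxcr4 and Dll4 differed between the strains and between the days. Over both days Cxcr4 was 0.79 ± 0.11 log2 units lower in SD than in F344 retinas, a 1.73-fold difference (adjusted p = 0.000296), with means of 7.94 in SD and 8.81 in F344 on day 6 and of 8.46 in SD and 9.18 in F344 on day 5. Dll4 was lower in SD retinas by 1.43-fold, a log2 difference of -0.52 ± 0.10 (adjusted p = 0.00534), with means of 6.05 in SD and 6.55 in F344 on day 6 and of 6.53 in SD and 7.06 in F344 on day 5. All SD arrays lay below all F344 arrays of the same day for both genes. These were 2 of the 9 genes, in a comparison that called 9.35% of all genes, and both calls held in all 16 fits without 1 array. Both genes were also lower on day 6 than on day 5, by log2 differences of -0.49 ± 0.10 for Dll4 (1.40-fold, adjusted p = 0.0177) and -0.45 ± 0.11 for Cxcr4 (1.36-fold, adjusted p = 0.0328), where 3% of all genes were called.

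The room air day difference held in 11 of 16 fits without 1 array for Dll4 and in 9 of 16 for Cxcr4. Both were lost without replicate 1 of F344 room air day 5 (adjusted p = 0.0887 for Dll4 and 0.157 for Cxcr4), replicate 1 of SD room air day 5 (0.105 and 0.173), or either array of F344 room air day 6 (0.0673 and 0.0696 for Dll4, 0.0868 and 0.146 for Cxcr4). Dll4 was also lost without replicate 2 of SD room air day 6 (0.0817), and Cxcr4 without replicate 1 of it (0.0917) and without either SD hyperoxia array of day 6 (0.0519 each). None of the other 7 genes was called between strains or days in room air.

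Vegfa, the growth factor that drives tip cells, was set beside the 9 genes. On day 6 it measured 9.19 and 9.29 in SD retinas under cyclic hyperoxia, against 8.93 and 9.08 in room air, and in F344 retinas 9.33 and 9.37 under cyclic hyperoxia, against 9.10 and 9.38 in room air. On day 5 it measured 7.92 and 8.21 in SD retinas under cyclic hyperoxia, against 9.01 and 9.14 in room air, and in F344 retinas 8.20 and 8.27 under cyclic hyperoxia, against 8.94 and 9.18 in room air. Vegfa thus fell on day 5, by 1.01 on the log2 scale in SD (adjusted p = 0.00501) and by 0.83 in F344 retinas (adjusted p = 0.021), while its day 6 changes of 0.23 and 0.11 were not called. The effect of day 6 minus that of day 5 was 1.24 in SD and 0.94 in F344 retinas (adjusted p = 0.0116 and 0.035). Over both strains the fall on day 5, -0.92 (adjusted p = 0.00013), was called in all 16 fits without 1 array, while the SD call was lost in 2 of them (replicate 1 of SD hyperoxia or of SD room air of day 5 omitted, adjusted p up to 0.276) and the F344 call in 3 (either F344 hyperoxia array or replicate 2 of F344 room air of day 5 omitted, up to 0.214). The day difference of Vegfa over both strains, 1.09 (adjusted p = 0.000843), also held in all 16, the SD one in 11 and the F344 one in 8, each lost without arrays of its own strain or of SD hyperoxia day 6 (adjusted p up to 0.159).

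Among the 9 genes, Tm4sf1 was the only one with a called day difference of the oxygen effect, as Vegfa had. In SD retinas alone that of Vegfa was called and that of Tm4sf1, 0.19, was not. On day 5 in SD retinas Vegfa fell, while Tm4sf1 changed by 0.01. On day 6 in F344 retinas Tm4sf1 rose by 0.61, while Vegfa had no called change. Dll4, which VEGF is known to raise in tip cells, had log2 changes on day 5 of 0.05 in SD and -0.45 in F344 retinas, neither called. The other ligands and partners of the 9 genes had no called oxygen effect. Cxcl12, the ligand of Cxcr4, changed by -0.13 on day 6 and -0.02 on day 5 over both strains (adjusted p = 0.459 and 0.962). Ntn1, the netrin ligand of Unc5b, changed by 0.04 and 0.10 (adjusted p = 0.818 and 0.679).

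Of 22 further tip cell genes measured, 1 rose and 1 fell over both strains on day 6, where 6.74% of all genes were called, and 1 fell on day 5, where 0.209% were. Adm, the vessel-active peptide adrenomedullin, rose on day 6 by 0.52 log2 units over both strains (adjusted p = 0.0102) and by 0.83 in SD retinas (adjusted p = 0.0123). Plxnd1, a semaphorin receptor of endothelium, fell by 0.40 over both strains on day 6 (adjusted p = 0.0391) and by 0.74 in F344 retinas (adjusted p = 0.033). Ets1, a transcription factor of sprouting endothelium, fell on day 5 by 0.55 over both strains (adjusted p = 0.0141) and by 0.73 in F344 retinas (adjusted p = 0.0431). The Adm call over both strains held in all 16 fits without 1 array, and the SD call was lost without either SD hyperoxia array or replicate 1 of SD room air of day 6 (adjusted p up to 0.135). The Plxnd1 calls were lost in 7 and 5 of the 16, in each case without either F344 room air array of day 6 among others (up to 0.208 and 0.242). The Ets1 calls were lost in 6 and 11 of the 16, in each case without either F344 hyperoxia array of day 5 among others (up to 0.0987 and 0.445). Angpt2, the angiopoietin of sprouting vessels, changed by 0.29 on day 6 (adjusted p = 0.103) and by 0.10 on day 5 (adjusted p = 0.761). The list's median change was 0.03 on day 6 and -0.08 on day 5, beside -0.01 and 0.01 over all genes. The VEGF receptor Kdr was not analysed here.

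Of 28 further Notch pathway genes measured, none was called in an oxygen effect in either strain, on either day or over both strains. On day 6 the median log2 change was 0.00 in SD retinas, with 14 of 28 genes below 0, and -0.19 in F344 retinas, with 24 of 28 below 0. Over both strains it was -0.14 on day 6, with 20 of 28 below 0, and 0.02 on day 5. Of all genes, 51.3% in SD, 50.9% in F344 and 51.8% over both strains lay below 0 on day 6. Without replicate 2 of F344 hyperoxia day 6, the array that stood apart, the F344 median of that day was -0.23. Notch1, the main receptor, changed by -0.25 on day 6 (adjusted p = 0.154). The targets Hes1 and Nrarp changed by 0.10 and -0.19 on day 6 (adjusted p = 0.773 and 0.267) and by -0.27 and 0.09 on day 5 (adjusted p = 0.553 and 0.771). Most of these genes are also active in retinal progenitor cells, and 26 of the 28 lay above the lowest array median. Over both strains on day 6, 4 of the 28 were called lower without replicate 1 of F344 hyperoxia day 6 and 2 without replicate 2, and 0 in the other 14 fits without 1 array.

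**Figure D3:**
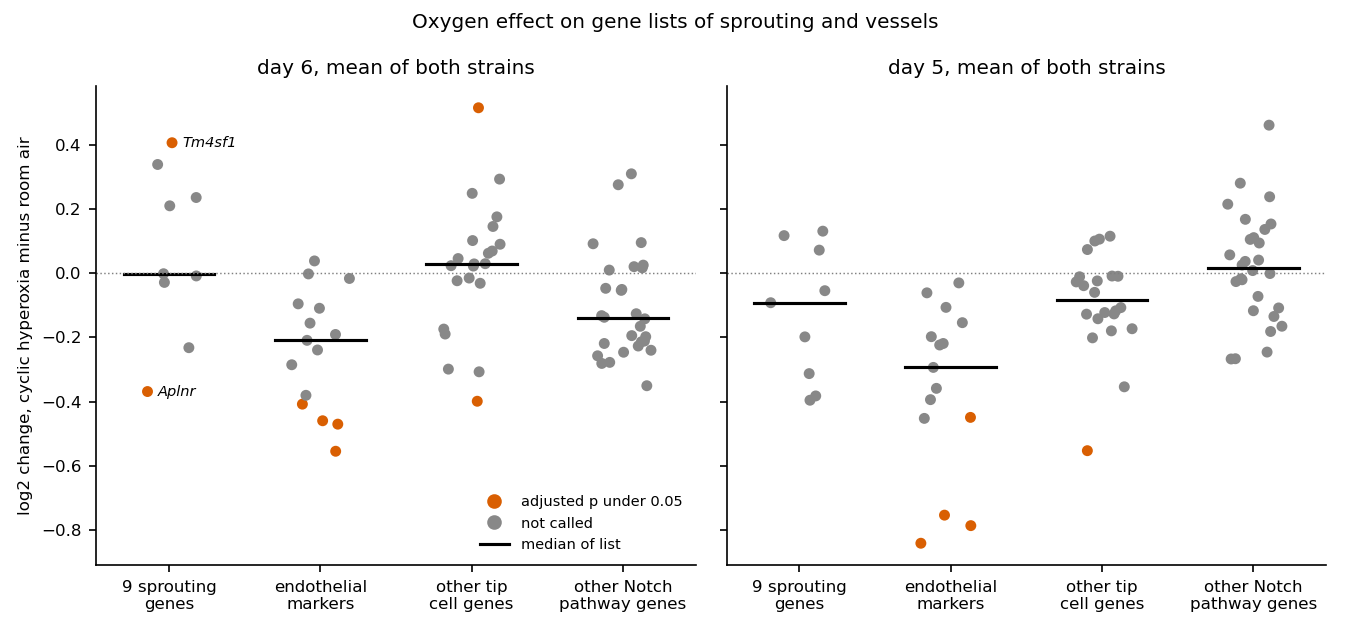
Log2 change under cyclic hyperoxia minus room air, mean of both strains (vertical axis), on day 6 in the left panel and day 5 in the right, for the 9 sprouting genes, 15 endothelial markers, 22 other tip cell genes and 28 other Notch pathway genes; points are genes, orange where adjusted p was under 0.05, and bars are list medians. The endothelial median lay at -0.21 on day 6 and -0.29 on day 5, and the sprouting genes spread on both sides of 0.

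Endothelial markers were lower under cyclic hyperoxia in the same arrays. Of 15 measured, 4 fell over both strains on day 6 (Tek, Tie1, Emcn and Adgrl4, by 0.41 to 0.56 log2 units) and 4 on day 5 (Tek, Adgrl4, Adgrf5 and Flt1, by 0.45 to 0.84). Over both strains 2.73% of all genes were called lower on day 6 and 0.209% on day 5. Changes were below 0 for 14 of 15 markers on day 6 and 15 of 15 on day 5, with medians of -0.21 and -0.29, beside 51.8% and 47.1% of all genes below 0. Tek, the angiopoietin receptor, fell by 0.56 on day 6 (adjusted p = 0.0107) and by 0.79 on day 5 (adjusted p = 0.00235, called in all 16 fits without 1 array). The day 6 count ranged from 0, without replicate 1 of SD hyperoxia day 6, to 6 when an array was left out, and the day 5 count from 2 to 5. The mean over the 15 markers was 4.82 ± 0.02 (SD, n = 2) under cyclic hyperoxia and 5.14 ± 0.02 in room air in SD retinas of day 6, and 4.97 ± 0.13 and 5.12 ± 0.02 in F344 retinas. On day 5 it was 4.68 ± 0.04 under cyclic hyperoxia and 5.05 ± 0.07 in room air in SD retinas, and 4.68 ± 0.00 and 5.02 ± 0.19 in F344 retinas. Of the 15 markers, 13 lay under the lowest array median, as did 6 of the 9 sprouting genes.

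Aplnr and Jag1 were high on arrays where the endothelial markers were high. Over the 16 arrays the Pearson r with the endothelial mean was 0.85 for Aplnr (Spearman rho 0.868) and 0.827 for Jag1 (rho 0.844). It was -0.459 for Cxcr4 (rho -0.385) and -0.29 for Dll4 (rho -0.321). For Tm4sf1 it was 0.388 and for Apln 0.463, while Esm1, Unc5b and Hey1 lay between -0.312 and 0.042. These are descriptions over arrays that share groups, strain and exposure. For deviations from the group mean, r was 0.625 for Tm4sf1, 0.59 for Aplnr, 0.555 for Jag1 and -0.791 for Dll4. The others lay between -0.337 and 0.234. Within the 8 hyperoxia arrays r was 0.692 for Aplnr and 0.9 for Jag1, and within the 8 room air arrays 0.49 and 0.514. Tm4sf1 and Apln also had high values within the hyperoxia arrays, 0.808 and 0.789, with 0.272 and 0.169 within the room air arrays. Without the 2 arrays farthest from the median endothelial mean r was 0.857 for Aplnr and 0.745 for Jag1, and 0.15 for Tm4sf1 and 0.304 for Apln. The part of endothelial content in the values of the sprouting genes was not tested.

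**Figure D4:**
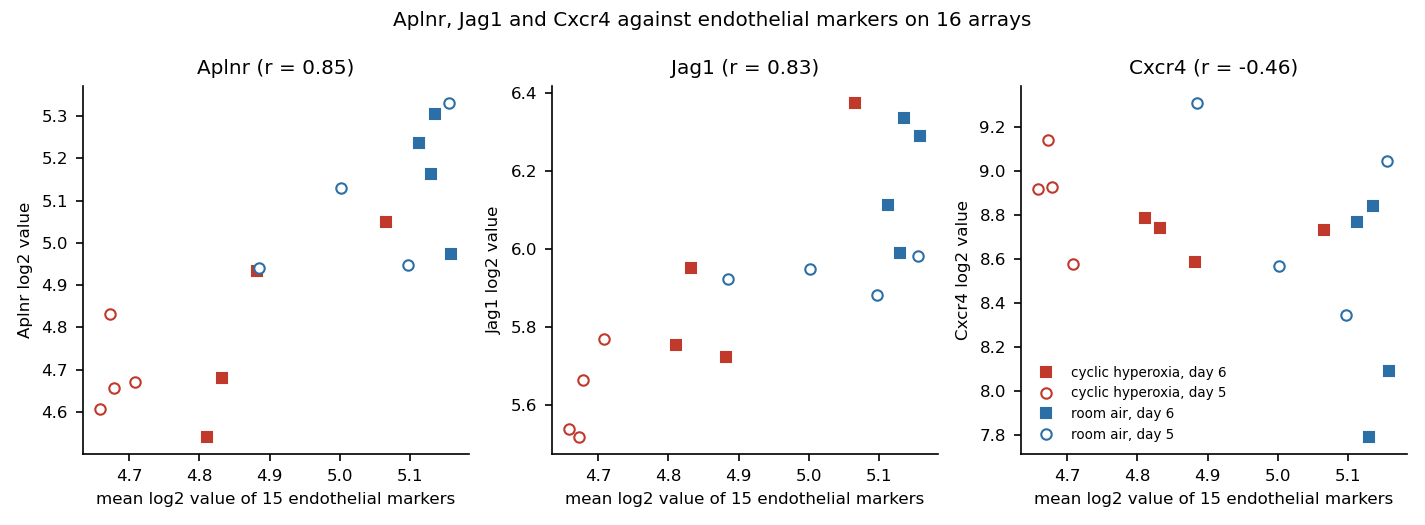
Log2 values of Aplnr, Jag1 and Cxcr4 (vertical axes) against the mean log2 value of 15 endothelial markers (horizontal axis) on each of the 16 arrays, with squares for day 6, open circles for day 5, red for cyclic hyperoxia and blue for room air. Aplnr and Jag1 were higher on arrays with a higher endothelial mean (r = 0.85 and 0.827), while Cxcr4 had r = -0.459.

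The 9 genes varied across arrays in different ways. Over their 36 pairs r ranged from -0.535 to 0.775 with a median of 0.014, and 4 pairs exceeded 0.5: Dll4 with Cxcr4 (0.775), Esm1 with Tm4sf1 (0.682), Aplnr with Jag1 (0.66) and Apln with Tm4sf1 (0.554). Looking across all genes, the 3 most like each were named by their r over the 16 arrays. Cxcr4 was nearest to Ssrp1 (0.878), Nhp2 (0.873) and Ccdc22 (0.868), and Dll4 to Orc1 (0.874), the non-coding RNA H19 (0.83) and Csrp2 (0.828). Ssrp1 is a subunit of a histone chaperone and Orc1 of the replication origin complex.

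Aplnr was nearest to Sox18 (0.864), a transcription factor of endothelium that is also on the endothelial list, then to Ddi2 (0.853) and Nrxn3 (0.852). Aplnr and Sox18 averaged 4.94 and 4.15, both under the lowest array median. Jag1 was nearest to the microglial receptor Csf1r (0.853), then to Slc16a10 and Pde8b (0.824 each). Tm4sf1 was nearest to Adamts9 (0.857), a secreted protease, Plscr2 (0.836) and the glycolytic enzyme Ldha (0.833). Tm4sf1 also averaged under that median (5.18). Among the neighbours of the other dim probe sets, several were sensory receptors from families of near-identical genes whose identity on the array is uncertain. Apln was nearest to P2ry1 (0.852), Or6aa1b (0.832) and Gsg1 (0.753), Esm1 to Vom2r33 (0.851), Bin2 (0.848) and Or1o2e (0.839), Unc5b to Nfkbie (0.869), Anks6 (0.814) and Tas2r120 (0.811), and Hey1 to Cbx2 (0.753), Was (0.747) and Chst8 (0.739).

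Markers of other cell types were read in the same way over both strains. None of the 9 pericyte and smooth muscle markers measured and none of the 8 astrocyte and Muller glia markers was called in an oxygen effect within a day. The pericyte and smooth muscle markers had a median log2 change of -0.13 on day 6, with 5 of 9 below 0, and of -0.25 on day 5, with 8 of 9 below 0. Rgs5, a pericyte gene, had the lowest of these on day 5, -1.28 (adjusted p = 0.0658). Of 10 microglial markers, Aif1 and C1qa rose on day 6, by 0.29 and 0.53 log2 units (adjusted p = 0.0373 and 0.017). That list had a median log2 change of 0.02, with 5 of 10 below 0, and 4.01% of all genes were called higher. Hbb, a haemoglobin chain, fell by 1.19 in F344 retinas on day 5 (adjusted p = 0.0152), in the setting where Tm4sf1 fell, and the other 4 erythroid markers were not called. The Hbb call was lost without either F344 hyperoxia array or replicate 2 of F344 room air of day 5 (adjusted p up to 0.214). Aif1 was called in 8 and C1qa in 13 of the 16 fits without 1 array, both lost without replicate 1 of SD hyperoxia day 6 or either F344 room air array of day 6 (up to 0.19). Of the 8 retinal neuron markers, Nrl, a transcription factor of rod photoreceptors, rose on day 6 by 0.57 in SD retinas (adjusted p = 0.021), where Cxcr4 rose, and by 0.32 over both strains (adjusted p = 0.034). The neuron markers had median log2 changes of -0.01 in SD retinas, with 4 of 8 below 0, and -0.07 over both strains, with 5 of 8. Of all genes, 2.23% and 4.01% were called higher in these comparisons. The Nrl calls held in 12 and 9 of the 16 fits without 1 array, both lost without either SD room air array or replicate 1 of SD hyperoxia of day 6 among others (adjusted p up to 0.321). The part of pericytes, microglia, photoreceptors or blood in the values of the sprouting genes was not tested.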

How the data were processed

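Retinal RNA of 16 pools was measured on single-colour expression arrays. The deposited table holds log2 values of 27342 probe sets, made with Partek 6.4 and RMA, per the submitters' processing notes. RMA subtracts background, equalises the distributions of the arrays and summarises probes, so a change common to most genes would be removed, and low values are compressed. No detection calls or scanner files were used here.

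Names came from the platform annotation, in which 15097 probe sets had 1 symbol, 323 several and 11922 were not named. Symbols of 15067 were matched to RefSeq genes. The probe set with the highest mean stood for each of 499 genes with several, which left 14324 genes. The test was limma's (version 3.58.1, R 4.3.3), with 1 mean per group over all 16 arrays (8 residual and 7.41 prior degrees of freedom), two-sided, with Benjamini-Hochberg adjustment over all genes and calls at 0.05. The number of arrays limits the precision. P-values measure the spread between pools, which share strain and perhaps litter.

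The 9 genes are always named. Of the lists, up to 6 genes called in an oxygen effect are named by smallest p, with Vegfa, Angpt2, Kdr, Notch1, Hes1, Nrarp, Cxcl12 and Ntn1 in any case. Of the marker lists, Aif1, C1qa, Hbb, Nrl and Myh11 are named because they were called in an oxygen effect or its day difference, and Rgs5 after its value was seen. The members and lists were chosen with earlier results of these data known. Correlations of the deviations from the group mean were taken between same-numbered arrays of different groups. They ran from -0.287 to 0.519 with a median of -0.023, and 16 of 56 exceeded 0.1. The arrays of a group deviate from its mean by equal and opposite amounts. Differently numbered arrays would thus give the same values with the sign reversed, and are no separate comparison. The check therefore cannot decide whether the numbers pair the samples. Sequences are RefSeq's for assembly GRCr8.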

Additional observations from a re-analysis of the deposited data

Results flagged for a closer look

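The oxygen effect on Tm4sf1 differed between the days by the test of the difference itself. Day 6 minus day 5 was 1.38 log2 units in F344 retinas (adjusted p = 0.00858, limma), with hyperoxia arrays above room air arrays on day 6 and below them on day 5. Over both strains the difference was 0.79 (adjusted p = 0.0293), and in SD retinas alone it was not called. In F344 retinas, day differences in the same direction were called for haemoglobin Hbb, 1.35 (adjusted p = 0.0254), Vegfa, 0.94 (adjusted p = 0.035), and the smooth muscle marker Myh11, 0.73 (adjusted p = 0.0496). With 1 array left out they were lost in 5, 8 and 11 of 16 fits, among them each fit that omitted an F344 array of day 5 hyperoxia or of day 6 room air (adjusted p up to 0.116, 0.159 and 0.183). Age and oxygen phase cannot be told apart in these day differences. The part of blood or smooth muscle content in the Tm4sf1 difference was not tested.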

How the results depend on the processing

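Over the alternatives, no named oxygen effect or room air difference of the 9 genes that was called changed direction. Of 2568 values for a gene under a setting, 2482 kept their side of the threshold, 78 lost a call, 8 gained one and 0 reversed one. Most of the 2568 belong to comparisons not called in the main fit, which had no call to lose. The 78 are thus a much larger share of the values that could lose a call. Genes removed as dim gave no value in that setting and are not counted as lost there. The number of the 9 called, 1 in F344 on day 5, became 0 when every probe set was tested, dim genes were left out, the replicate number was a block, each day was fitted alone, arrays were quantile normalized again or were centred and scaled. For F344 on day 6 it was 1 and became 0 under these and under an intensity trend. Over both strains on day 6 it was 2 and became 0 with dim genes left out or each day alone, and 3, with Cxcr4, after quantile normalization or centring and scaling. For the day difference it was 1 in F344 and became 0 without dim genes, and over both strains it was 1 and became 0 when every probe set was tested, without dim genes or with the block. In room air between days it was 2 and became 1 after centring and scaling. With 1 array left out the number ran from 0 to 1 in F344 on either day, 0 to 2 in SD on day 6, 0 to 4 over both strains on day 6, 0 to 1 for the strain difference on day 6, 0 to 1 for the day difference in F344 and over both strains, and 0 to 2 between days in room air; the other counts did not move. Leaving out dim genes removed 6090 genes and kept only Dll4, Cxcr4 and Jag1 of the 9. Whether the replicate numbers pair the samples is not known, and with them as a block Tm4sf1 had adjusted p of 0.07 in F344 on day 5 and 0.0615 on day 6. A second probe set per gene could not be tried, since each of the 9 has 1. Over all genes the counts moved by over 1.5 times in these cases. With each day alone they were 8 against 18 for F344 on day 5, 0 against 170 for F344 on day 6, 81 against 400 for SD on day 6 and 396 against 966 over both strains on day 6. F344 on day 6 had 111 with every probe set tested and 74 with the trend. The strain difference on day 6, with 8 genes, had 14, 5, 5, 0, 3, 4 and 2 under every probe set, dim genes left out, block, day alone, trend, quantile and scaling. The F344 day difference, with 146, had 68, 87, 61, 76 and 44 under every probe set, block, trend, quantile and scaling. With 1 array left out they ran from 4 to 19 (F344 day 5), 0 to 15 (SD day 5), 0 to 1621 (F344 day 6) and 0 to 994 (SD day 6), 53 to 2829 (both strains, day 6), each highest without the first F344 hyperoxia array of day 6. So were those of 14 to 54 (both strains, day 5), 0 to 181 (strain difference, day 6), 2 to 494, 2 to 20 and 18 to 66 (day difference in F344, in SD and over both strains) and 615 to 1844 (room air strains); room air days ran from 92, without replicate 1 of SD room air day 5, to 676, without replicate 2 of F344 room air day 5. The lowest came without replicate 1 of F344 hyperoxia day 5 (F344 day 5), of SD hyperoxia day 5 (SD day 5) and of SD hyperoxia day 6 (SD and both strains, day 6), and without replicate 2 of F344 hyperoxia day 6 (F344 day 6), without replicate 2 of F344 hyperoxia day 5 (both strains, day 5), SD hyperoxia day 5 (day difference over both strains) and F344 room air day 5 (room air strains), without replicate 1 of F344 room air day 6 (strain difference, day 6, and day difference in F344) and of SD hyperoxia day 5 (day difference in SD). The cause was not tested. With 2 arrays per group and many probes near background, small changes could not be detected.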

Other observations

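In room air, 4 of 28 further Notch pathway genes were called between strains and 3 of 28 between days, in both directions. Over both days Mfng, a glycosyltransferase that modifies Notch receptors, was lower in SD than in F344 retinas by a log2 difference of -0.86 (adjusted p = 0.00104, limma), with means of 7.47 in SD and 8.67 in F344 on day 6. Notch1 and Numbl, a Notch antagonist, were lower in SD retinas too (-0.37 and -0.38, adjusted p = 0.0356 and 0.0209), and Rbpj, the DNA-binding partner of Notch, was higher (0.45, adjusted p = 0.0185). Between days the target Hes1 was lower on day 6 (-0.63, adjusted p = 0.0468), and the ligand Jag2 and the gamma-secretase subunit Aph1a were higher (0.34 and 0.38, adjusted p = 0.0424 and 0.0315). Over all genes 9.35% and 3% were called in these comparisons.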
